A study of Homo sapiens with 6 samples.

Results

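Mineralisation and cartilage-bone regulators, 9 genes of the 21151 in the count table, were compared between dermal fibroblasts with and without knockdown of ZNF469. The genes are MGP, ALPL, ENPP1, ANKH, RUNX1, RUNX2, SOX9, ACAN and TNFRSF11B, chosen by name, and each symbol had 1 entry. Earlier results of these data were known when the 9 were chosen. The shZNF469 group comprised 3 RNA sequencing libraries of CCD-1064Sk, a human skin fibroblast line (CRL-2076), carrying short-hairpin RNA against the zinc-finger gene ZNF469 and labelled ZNF469 knockdown. The shControl group comprised 3 libraries of the same line, labelled WT for the gene, with a control hairpin. Both groups thus carried a hairpin and came from 1 line grown in serum-containing medium. The labels do not state how many hairpins were used against ZNF469, or whether the cells were a clone or a pool. The study text calls the libraries of a group technical replicates, so p-values measure only the spread between these libraries. The stated purpose was to learn how ZNF469 affects production of extracellular matrix.

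Mineral forms in a tissue when phosphate outweighs inhibitors such as pyrophosphate, a small molecule that blocks crystal growth. ENPP1 makes pyrophosphate outside the cell, ANKH takes part in its release from the cell, and ALPL, the tissue-nonspecific alkaline phosphatase, splits it into phosphate. MGP is a matrix protein that keeps soft tissue from calcifying. RUNX2 and SOX9 are the transcription factors that direct bone and cartilage formation, RUNX1 is a relative of RUNX2 best known from blood formation, ACAN encodes the cartilage proteoglycan aggrecan, and TNFRSF11B encodes osteoprotegerin, a decoy receptor that restrains bone resorption.

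Total counts were 41318439 to 48298264 in shZNF469 libraries and 35417366 to 46911355 in shControl libraries. ZNF469 itself had 1000, 906 and 750 reads in shZNF469 libraries, against 1416, 2179 and 1494 in shControl libraries, and fell 2.17-fold (log2 fold change -1.12, edgeR adjusted p = 0.000873). On the first principal component, which held 30.5% of the variance, shZNF469 libraries lay at -39.1, -36.7 and -42.2, while shControl replicates 1, 2 and 3 lay at 55.8, 10.2 and 52.0. On the second component shControl replicates 1 and 3 lay at opposite ends, at 61.6 and -62.2, and replicate 2 at -3, so the 3 shControl libraries stood apart from one another. Of the markers fixed for fibroblasts, 10 of 10 had a mean of 1 TPM or more, TPM being the authors' length-scaled abundance, whose sum is the same in every library. Their summed TPM was 27081 to 28821 in shZNF469 and 33620 to 36046 in shControl libraries, with COL1A1, COL1A2 and COL3A1 lower and VIM and FBLN1 higher. Of the markers of other skin cells, KRT10 of keratinocytes was lower in shZNF469 libraries (edgeR adjusted p = 0.0190), and its part in the results was not tested. KRT10 was the only one of 6 keratinocyte markers with an entry in the count table. KRT5, KRT14, KRT1, CDH1 and TP63 had no entry under those symbols. Of 8 chondrocyte markers, only MATN3 and COL11A2 had an entry, and COL2A1, COL9A1, MATN1, CNMD, HAPLN1 and EPYC had none under those symbols. The summed TPM of MATN3 and COL11A2 was 3.44 to 5.97 in shZNF469 and 5.00 to 6.63 in shControl libraries. COL11A2 was listed at 0 in 5 of the 6 libraries. In bulk RNA, fewer cells of a type and less RNA per cell cannot be told apart.

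All 9 genes passed the filter on low counts. In shZNF469, 1 of the 9 rose (ALPL), 2 fell (MGP and ACAN) and 6 did not pass the test, edgeR's quasi-likelihood test at an adjusted p under 0.05. Among all 16353 genes tested, 4.56% rose, 5.34% fell and 9.90% were called in either direction. No test of the list as a whole was made, so no conclusion on the list is drawn from 3 calls among 9 genes. The median log2 fold change of the 9 was -0.08, against 0.00 over all genes tested, and the median absolute log2 fold change was 0.14, against 0.17. The libraries of both groups did not overlap for 4 of the 9, namely MGP, ALPL, ACAN and ANKH, where 31.4% of all tested genes showed no overlap.

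**Figure D1:**
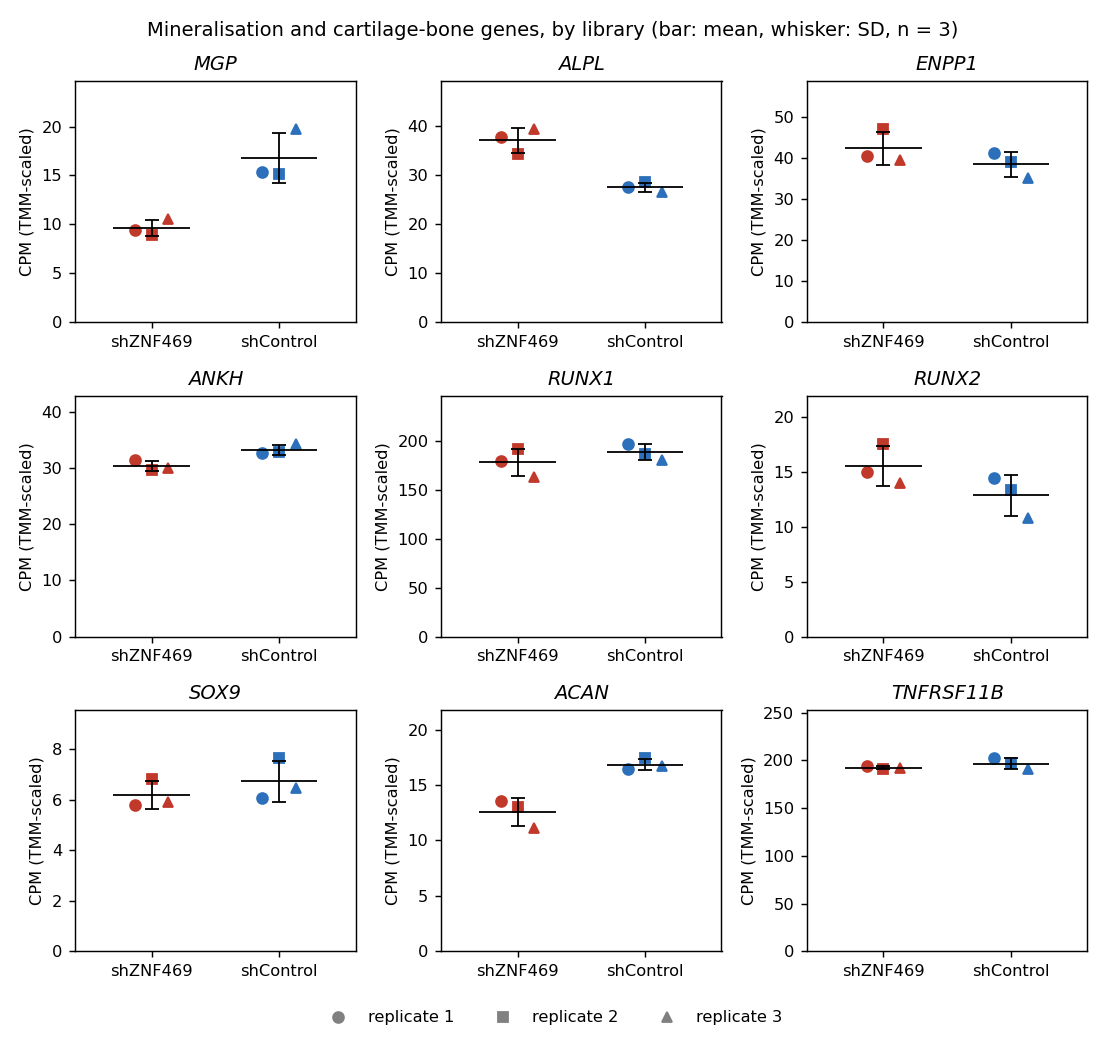
TMM-scaled CPM (reads scaled to library size, y axis from 0) of the 9 genes in each library, with shZNF469 in red on the left and shControl in blue on the right; bars are means and whiskers SD (n = 3), and symbols mark the replicate. MGP and ACAN sit lower and ALPL higher in every shZNF469 library than in any shControl library, whereas TNFRSF11B lies at 191 to 194 CPM in shZNF469 and 191 to 202 CPM in shControl libraries.

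Per unit of length, on the TPM scale of the deposited table, the genes spanned a wide range in both groups. TNFRSF11B stood highest, at 214 ± 12.8 TPM in shZNF469 and 221 ± 16.1 TPM in shControl libraries (SD, n = 3). RUNX1 came next, at 65.0 ± 5.75 TPM in shZNF469 and 67.8 ± 4.22 TPM in shControl libraries. In shZNF469 libraries the order went on with ALPL at 34.2 ± 0.637 TPM, MGP at 23.3 ± 1.98 TPM and ENPP1 at 13.2 ± 2.07 TPM, and these did not overlap. In shControl libraries MGP (27.0 ± 3.40 TPM) and ALPL (25.5 ± 1.67 TPM) overlapped, above ENPP1 at 12.2 ± 1.33 TPM. ANKH (8.61 ± 0.327 TPM) and RUNX2 (7.42 ± 1.48 TPM) overlapped in shZNF469 libraries, whereas in shControl libraries ANKH at 9.44 ± 0.180 TPM lay above RUNX2 at 6.45 ± 0.544 TPM. ACAN and SOX9 were lowest and overlapped in both groups, at 3.66 ± 0.798 and 3.62 ± 0.531 TPM in shZNF469 libraries and 4.63 ± 0.280 and 4.00 ± 0.552 TPM in shControl libraries.

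MGP, the inhibitor of soft-tissue calcification, had the largest change of the 9. The gene (ENSG00000111341, chromosome 12, 14880864 to 14885854 on GRCh38.p14, minus strand) had 9.47, 8.96 and 10.6 CPM in shZNF469 libraries, against 15.4, 15.2 and 19.7 CPM in shControl libraries. The highest shZNF469 library was below the lowest shControl library, and shControl replicate 3 was the highest of the 6. MGP fell 1.73-fold (log2 fold change -0.79, SE 0.13, edgeR adjusted p = 0.0104), a larger absolute change than 92.1% of tested genes had. Without shControl replicate 2 the log2 fold change was -0.85 (adjusted p = 0.0283), and without shZNF469 replicate 1 the call was lost (adjusted p = 0.0572).

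The TPM of MGP did not show a fall of that size. It was 22.6, 25.6 and 21.8 TPM in shZNF469 libraries and 26.4, 24.0 and 30.7 TPM in shControl libraries, which overlap, and limma on log2(TPM + 1) gave a log2 difference of -0.20 (adjusted p = 0.376). TPM divides reads by transcript length, so the number of reads behind 1 TPM tracks the length used for a gene in a library. Relative to the median gene of each library, MGP had 0.335, 0.298 and 0.365 reads per TPM in shZNF469 libraries, against 0.483, 0.528 and 0.494 in shControl libraries. The groups did not overlap, and this shift between groups (log2 ratio -0.59) was larger than that of 99.8% of 14518 genes with at least 10 reads in every library. The quotient was computed after the disagreement between counts and TPM was seen. GENCODE release 29 lists 4 MGP transcripts of 423 to 1405 bases; which of them the reads came from was not tested. An opposite-strand gene, C12orf60, shares 76 exonic bases with MGP and averaged 7.5 reads per library.

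**Figure D2:**
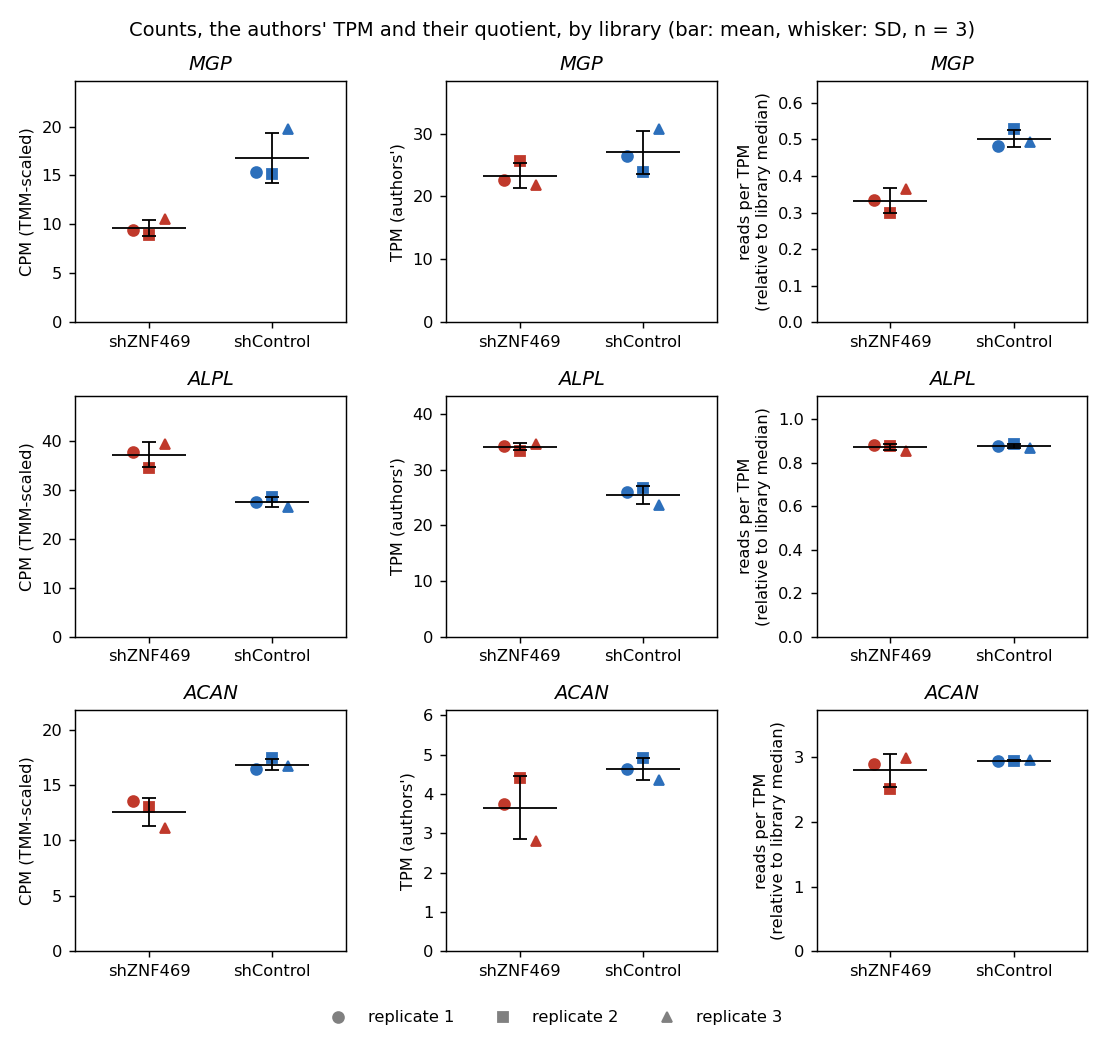
TMM-scaled CPM (left column), the authors' TPM (middle column) and reads per TPM relative to the library median (right column) of MGP, ALPL and ACAN in each library, all axes from 0, shZNF469 left of shControl, with means and SD (n = 3). Reads per TPM average 0.333 in shZNF469 and 0.502 in shControl libraries for MGP, but 0.870 in shZNF469 and 0.876 in shControl libraries for ALPL, and 2.80 in shZNF469 and 2.95 in shControl libraries for ACAN.

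ALPL, the phosphatase that removes pyrophosphate, was the only one of the 9 to rise. It lies on chromosome 1, 21508984 to 21578410, plus strand (ENSG00000162551). It had 37.8, 34.4 and 39.4 CPM in shZNF469 libraries and 27.5, 28.5 and 26.6 CPM in shControl libraries. Every shZNF469 library was above every shControl library, and the rise was 1.35-fold (log2 fold change 0.43, SE 0.07, 95% interval 0.27 to 0.59, edgeR adjusted p = 0.0101). The TPM groups did not overlap either, with 34.4, 33.4 and 34.7 TPM in shZNF469 libraries and 26.0, 26.8 and 23.6 TPM in shControl libraries. Reads per TPM of ALPL averaged 0.870 in shZNF469 and 0.876 in shControl libraries, and limma on log2(TPM + 1) called the rise (log2 difference 0.41, adjusted p = 0.0284). Without shControl replicate 2 the log2 fold change was 0.47 (adjusted p = 0.0377). The call was narrowly lost without shZNF469 replicate 1 (adjusted p = 0.0551) and without shControl replicate 1 (adjusted p = 0.0547).

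ENPP1 and ANKH, the genes on the supply side of pyrophosphate, did not pass the test. ENPP1 (ENSG00000197594, chromosome 6, 131808020 to 131895155, plus strand) had 40.6, 47.0 and 39.5 CPM in shZNF469 and 41.3, 39.0 and 35.2 CPM in shControl libraries. The groups overlapped, and the interval of the fold ran from 0.952 to 1.27 (adjusted p = 0.415). ANKH (ENSG00000154122, chromosome 5, 14704800 to 14871778, minus strand) had 31.4, 29.6 and 30.0 CPM in shZNF469 and 32.6, 32.8 and 34.3 CPM in shControl libraries. Its groups did not overlap, but the difference was small, with a fold interval of 0.834 to 0.996, an unadjusted p of 0.0426 and an edgeR adjusted p of 0.187.

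Ratios of counts within a library need no scaling between libraries. The ratio of ALPL to ENPP1 reads was 0.931, 0.731 and 0.998 in shZNF469 libraries and 0.666, 0.732 and 0.756 in shControl libraries, where shZNF469 replicate 2 fell among the controls (exact permutation test, two-sided p = 0.3, n = 3 each). The ratio of ANKH to ENPP1 reads was 0.773, 0.629 and 0.759 in shZNF469 libraries and 0.791, 0.842 and 0.975 in shControl libraries. These did not overlap (exact permutation test, two-sided p = 0.1, the smallest that 3 against 3 can give). In all 3 ratios were computed, and adjustment over them can only raise these p-values.

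**Figure D3:**
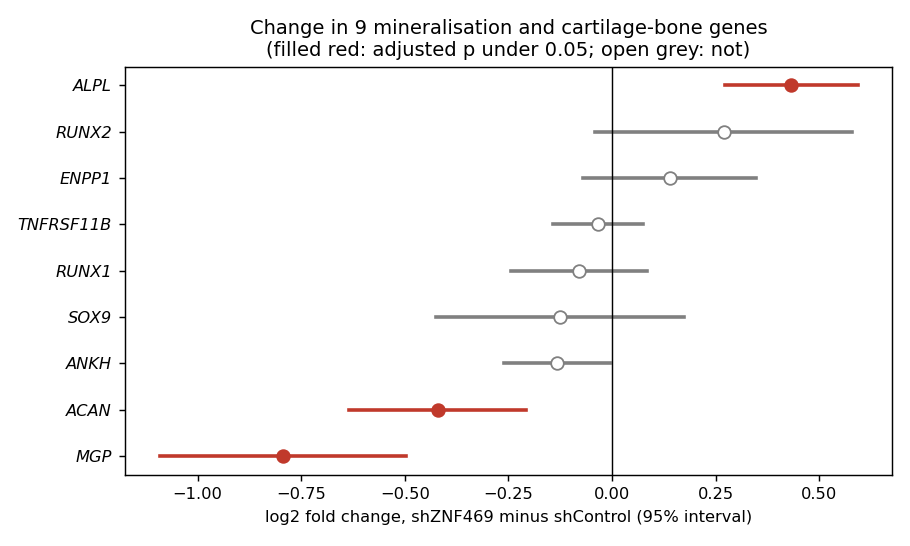
Log2 fold change, shZNF469 minus shControl, of the 9 genes (points) with 95% intervals from edgeR (lines); filled red points passed at an adjusted p under 0.05 and open grey points did not. MGP at -0.79 and ACAN at -0.42 lie left of 0 and ALPL at 0.43 right of it, while the intervals of RUNX2, ENPP1, TNFRSF11B, RUNX1 and SOX9 span 0.

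None of the 3 lineage transcription factors passed. RUNX2 (ENSG00000124813, chromosome 6, 45328330 to 45551082, plus strand) had 15, 17.5 and 14 CPM in shZNF469 libraries, against 14.5, 13.3 and 10.8 CPM in shControl libraries. The groups overlapped, since shZNF469 replicate 3 lay below shControl replicate 1, and the log2 fold change of 0.27 (SE 0.13) had a fold interval of 0.973 to 1.5 (adjusted p = 0.269). RUNX1 (ENSG00000159216, chromosome 21, 34787801 to 35049302, minus strand) had 180, 192 and 164 CPM in shZNF469 libraries and 197, 187 and 181 CPM in shControl libraries, with a fold interval of 0.845 to 1.06 (adjusted p = 0.580). SOX9 (ENSG00000125398, chromosome 17, 72121020 to 72126416, plus strand) was the least abundant by count, with 5.78, 6.82 and 5.93 CPM in shZNF469 libraries and 6.09, 7.64 and 6.47 CPM in shControl libraries. Its fold interval of 0.745 to 1.13 (adjusted p = 0.638) was wide. SUPT3H overlaps RUNX2 on the opposite strand without shared exonic bases.

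RUNX1 and RUNX2 share a DNA-binding domain, and their balance was compared within libraries. There were 0.0834, 0.0915 and 0.0854 RUNX2 reads per RUNX1 read in shZNF469 libraries and 0.0734, 0.0711 and 0.0598 in shControl libraries. Every shZNF469 library was above every shControl library (log2 difference 0.35, exact permutation test, two-sided p = 0.1, the smallest possible with 3 against 3). On TPM values the log2 difference was 0.25, with an exact permutation p of 0.2.

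ACAN, whose product binds water in cartilage through its chondroitin sulfate chains, fell. The gene (ENSG00000157766, chromosome 15, 88803436 to 88875353, plus strand) had 13.6, 13 and 11.2 CPM in shZNF469 libraries, against 16.4, 17.4 and 16.7 CPM in shControl libraries. The groups did not overlap, and ACAN fell 1.34-fold (log2 fold change -0.42, SE 0.09, edgeR adjusted p = 0.0307). This call was the least stable of the 3. It was lost in 9 of 15 alternative settings, including each fit without 1 library (adjusted p from 0.0501 without shZNF469 replicate 2 to 0.108 without shControl replicate 2). In TPM the groups overlapped, at 3.75, 4.40 and 2.82 TPM in shZNF469 and 4.63, 4.91 and 4.35 TPM in shControl libraries, and limma on log2(TPM + 1) gave an adjusted p of 0.371.

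TNFRSF11B (ENSG00000164761, chromosome 8, 118923557 to 118951885, minus strand), the decoy receptor for the bone-resorption ligand TNFSF11, had the narrowest interval of the 9. It had 194, 191 and 192 CPM in shZNF469 libraries and 202, 197 and 191 CPM in shControl libraries. The groups overlapped, and the fold interval was 0.905 to 1.05 (adjusted p = 0.740).

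Within groups the 9 genes did not all vary in parallel, although ENPP1, RUNX1 and RUNX2 shared 1 order of replicates within each group. Among shControl libraries, ENPP1, RUNX1, RUNX2 and TNFRSF11B had their highest CPM in replicate 1 and their lowest in replicate 3, whereas MGP and ANKH had their highest in replicate 3. Among shZNF469 libraries, ENPP1, RUNX1, RUNX2 and SOX9 were all highest in replicate 2, the library in which MGP, ALPL, ANKH and TNFRSF11B were lowest. Leaving out single libraries moved the log2 fold change of RUNX2 between 0.16 and 0.37 and that of ENPP1 between 0.06 and 0.20.

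RUNX1, RUNX2 and SOX9 are DNA-binding factors whose known letters can be looked for before transcription starts (TGTGGT for RUNX, ACAAAG or ACAATG for SOX). Windows are shown for the called genes ALPL and ACAN, while the RUNX2 window is shown because it held the RUNX letters. RefSeq entries on GRCh38.p14 matched 6 of the 9 genes with 9 starts, and MGP, SOX9 and TNFRSF11B had none. The 250 bases before each start were read on both strands for these letters, for the GC box GGGCGG and for the TATA letters TATAAA. Capitals mark every match on either strand, and the 3 windows below are the 2nd ALPL start (chr1:21509173-21509422, plus strand), the ACAN start (chr15:88803186-88803435, plus strand) and the 1st RUNX2 start (chr6:45328080-45328329, plus strand).
ALPL: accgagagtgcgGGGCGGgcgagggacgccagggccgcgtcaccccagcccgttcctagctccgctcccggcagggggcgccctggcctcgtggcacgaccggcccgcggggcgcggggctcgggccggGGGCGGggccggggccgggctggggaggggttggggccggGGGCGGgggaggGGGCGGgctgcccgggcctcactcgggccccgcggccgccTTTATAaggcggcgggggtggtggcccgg
ACAN: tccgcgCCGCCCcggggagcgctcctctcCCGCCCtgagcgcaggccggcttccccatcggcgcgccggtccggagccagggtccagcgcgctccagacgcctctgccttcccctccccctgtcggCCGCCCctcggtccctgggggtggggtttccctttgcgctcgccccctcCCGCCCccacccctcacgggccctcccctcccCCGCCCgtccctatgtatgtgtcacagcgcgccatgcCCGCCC
RUNX2: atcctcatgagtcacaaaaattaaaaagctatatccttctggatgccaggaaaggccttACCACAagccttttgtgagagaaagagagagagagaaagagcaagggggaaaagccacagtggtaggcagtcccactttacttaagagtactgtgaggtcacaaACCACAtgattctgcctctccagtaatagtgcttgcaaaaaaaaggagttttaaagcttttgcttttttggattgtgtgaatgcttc
The ALPL window, 83.6% G or C, held 4 GC boxes and 1 set of TATA letters, marked from 29 bases before the start. This stretch reads TTTATA in the window, so TATAAA lay on the strand opposite to the gene. Of the other ALPL starts, the 1st held none of the letters searched, and the 3rd held the SOX letters once, 8 bases before the start, with no GC box or TATA letters. That was the only one of the 9 windows with the SOX letters. The ACAN window, 77.2% G or C, held 6 GC boxes and none of the TATA, RUNX or SOX letters. The RUNX2 window was 41.6% G or C and held the RUNX letters at 2 places, 191 and 87 bases before the start. It was the only one of the 9 windows with them. The 2nd RUNX2 start, 78.0% G or C, held 1 GC box, 219 bases before the start, and none of the TATA, RUNX or SOX letters. Of 34941 RefSeq windows of this length, 42.5% held a GC box, 21.3% the SOX letters, 11% the RUNX letters and 10.8% the TATA letters. These matches describe the sequence, and which starts the fibroblasts used was not measured.

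Other genes of the same pathways were read from 5 lists that leave out the 9. These lists, too, were chosen with earlier results of these data known. Over all genes tested, edgeR called 4.56% higher and 5.34% lower, and no list was tested as a whole. For phosphate, pyrophosphate and calcification, 16 of 28 genes were tested; 1 rose and 1 fell, and the median log2 fold change was -0.08. SLC20A1, a phosphate importer of the plasma membrane, fell to 25.4 ± 2.46 CPM in shZNF469, against 39.7 ± 0.926 CPM in shControl libraries (1.56-fold, SD, n = 3, edgeR adjusted p = 0.00381), and kept its call in 15 of 15 alternative settings. NT5E, which makes adenosine from AMP and whose loss causes arterial calcification in people, averaged 158 ± 8.24 CPM in shZNF469 and 132 ± 6.80 CPM in shControl libraries (1.20-fold higher, adjusted p = 0.0432). The call of NT5E was lost in each of the 6 fits without 1 library, at adjusted p of 0.0777 to 0.152.

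Of 28 osteoblast regulators and products, 18 were tested; 0 rose and 1 fell, with a median log2 fold change of 0.12. Where edgeR called 0 higher, 7 were higher at an unadjusted p under 0.05, as were 12.1% of all genes tested, and DESeq2 called 6, where it called 11.6% of all genes. SPARC, a collagen- and mineral-binding matrix protein also called osteonectin, fell to 1735 ± 86.6 CPM in shZNF469, against 4290 ± 141 CPM in shControl libraries (2.47-fold, edgeR adjusted p = 5.8e-05). SP7 and BGLAP, which define osteoblasts, had no entry under those symbols in the count table and were not tested.

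For cartilage regulators and matrix, 13 of 29 genes were tested; 1 rose and 2 fell, with a median log2 fold change of 0.04. COL11A1, a fibrillar collagen chain of cartilage that fibroblasts also make, fell 1.46-fold, to 261 ± 21.8 CPM in shZNF469, against 382 ± 17.1 CPM in shControl libraries (edgeR adjusted p = 0.00453). COMP, the cartilage oligomeric matrix protein, was 1.24-fold lower (adjusted p = 0.0388) and MATN2, a matrilin, was 1.15-fold higher (adjusted p = 0.0494). Both of these calls were lost in each fit without 1 library, at adjusted p up to 0.128 for COMP and 0.167 for MATN2.

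Of 18 aggrecan-cleaving proteases and genes related to aggrecan, 13 were tested, with a median log2 fold change of 0.10. Of these, 4 rose and 1 fell, where 4.56% of all genes tested rose and 5.34% fell. ADAMTS15, a protease that can cut aggrecan, rose 1.5-fold, to 38.7 ± 1.90 CPM in shZNF469, against 25.8 ± 0.572 CPM in shControl libraries (edgeR adjusted p = 0.00185). VCAN, which encodes versican, a relative of aggrecan in soft tissue, rose 1.63-fold, to 39.4 ± 4.44 CPM in shZNF469, against 24.2 ± 1.10 CPM in shControl libraries (adjusted p = 0.00453). MMP14 rose 1.28-fold and XYLT2, which starts the sugar chains of proteoglycans, 1.24-fold. TIMP3, an inhibitor of aggrecan-cleaving proteases, fell 1.26-fold, to 341 ± 5.73 CPM in shZNF469, against 431 ± 6.99 CPM in shControl libraries (adjusted p = 0.00397). ADAMTS4 and ADAMTS5, the main aggrecan-cleaving proteases, did not pass and are named after their values were seen. ADAMTS4 had 4.50, 3.98 and 3.54 CPM in shZNF469 libraries and 5.14, 6.43 and 8.13 CPM in shControl libraries, which did not overlap (log2 fold change -0.71, adjusted p = 0.0568). ADAMTS5 averaged 60.6 ± 6.13 CPM in shZNF469 and 56.8 ± 3.47 CPM in shControl libraries (log2 fold change 0.09, adjusted p = 0.584). ADAMTS15, VCAN, MMP14 and TIMP3 kept their calls in 15 of 15 alternative settings, and XYLT2 lost its call in 6, among them the fits without shZNF469 replicate 1 and without each shControl replicate (adjusted p up to 0.0691 over these).

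Of 12 partners of osteoprotegerin and its ligands, 9 were tested; 2 rose and 0 fell, with a median log2 fold change of 0.06. Where edgeR called 0 lower, 1 was lower at an unadjusted p under 0.05, as were 12.3% of all genes tested, and DESeq2 called 1, where it called 11.7% of all genes. TNFRSF10C and TNFRSF10D, decoy receptors for TNFSF10 (TRAIL), a ligand that osteoprotegerin also binds, rose 1.47-fold and 1.21-fold (edgeR adjusted p = 0.0387 and 0.0211). TNFRSF10C had 7.20, 6.40 and 7.11 CPM in shZNF469 libraries and 4.38, 4.33 and 5.43 CPM in shControl libraries. Each of these calls was lost in 4 of the 6 fits without 1 library, in both cases without shZNF469 replicate 1, shControl replicate 1 and shControl replicate 2, and also without shZNF469 replicate 3 for TNFRSF10C and shControl replicate 3 for TNFRSF10D (adjusted p up to 0.130 and 0.0927). TNFSF10 itself was listed at 0 in 5 of 6 libraries. TNFSF11 and its receptor TNFRSF11A had no entry under those symbols in the count table and were not tested.

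**Figure D4:**
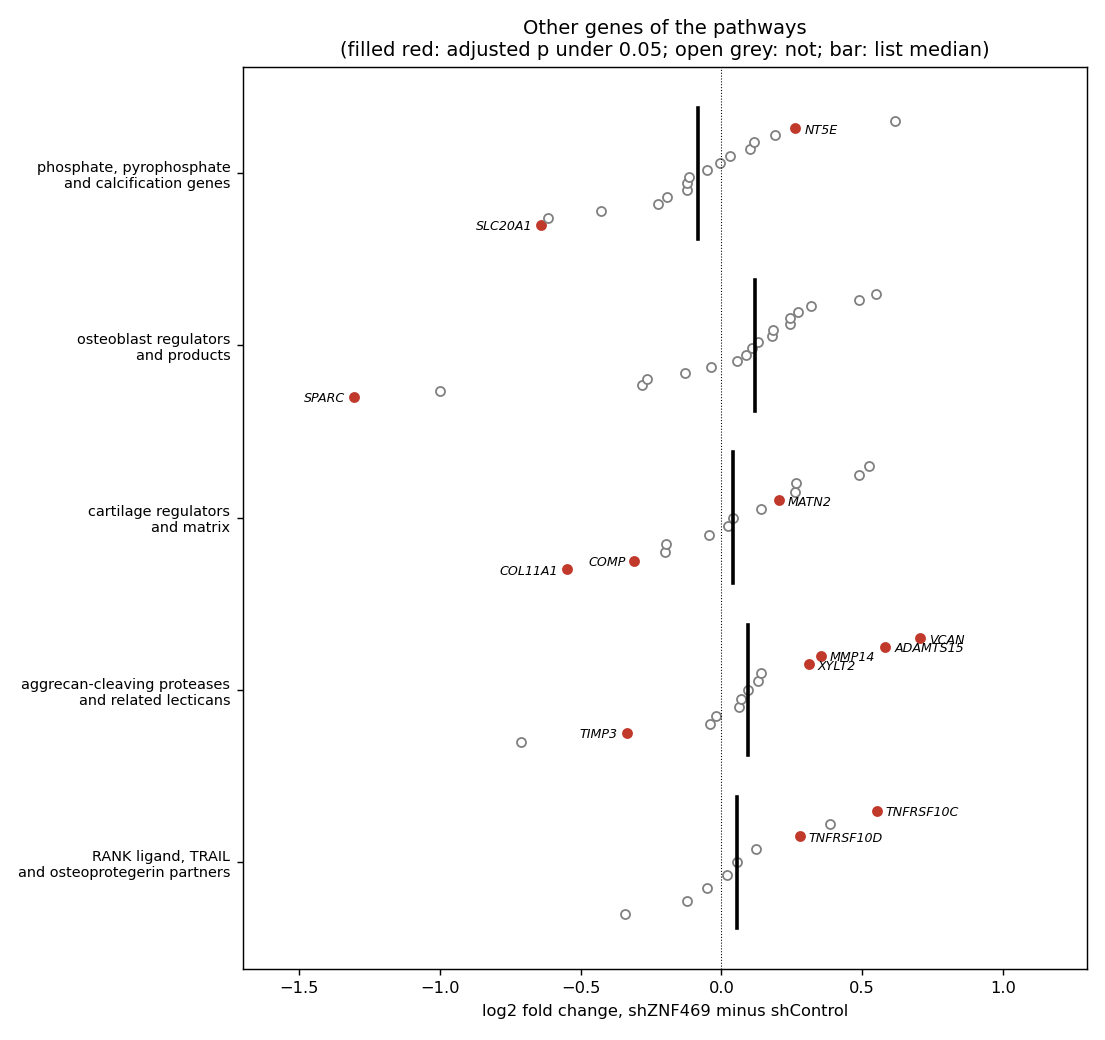
Log2 fold change, shZNF469 minus shControl, of each tested gene in 5 lists of related genes (points; filled red and named where the adjusted p was under 0.05), with the list median as a black bar. List medians lie between -0.08 and 0.12, and the called genes lie between SPARC at -1.31 and VCAN at 0.71.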

How the data were processed

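Libraries of the CCD-1064Sk line (6 in all) were made with an NEBNext Ultra kit (labels' protocols). The submitters' processing notes name the aligner HISAT2, the assembler StringTie and the build GRCh38.p14, without versions. The annotation release and strand setting were not given in the sources used here, so reads of overlapping genes on opposite strands cannot be told apart. The deposited table gives whole-number counts and the authors' TPM per gene and library, per the file headers; the lowest TPM above 0 was 0.333 to 0.456, so a listed 0 is no proof of absence.

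Counts were analysed with edgeR 4.0.16 in R 4.3.3: filterByExpr (minimum count 10), TMM scaling, quasi-likelihood F-test without covariates (two-sided), Benjamini-Hochberg adjustment over 16353 genes, a call at an adjusted p under 0.05. CPM are TMM-scaled. SE came from the estimate and its F statistic. On simulated counts, the procedure recovered 14% of 1.25-fold, 38% of 1.5-fold, 68% of 2-fold and 72% of 3-fold changes. The 200 changed genes were drawn at random from all genes tested. The rates are thus averages over all count levels and not rates for the 9. A gene that did not pass may thus have changed. Library pairs within groups differed beyond sampling noise (chi-square per degree of freedom 8.70 to 34.8), so none was taken as a copy of another and all 6 were counted. This comparison cannot show whether the libraries of a group came from separate cultures.

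The 9 genes and the 5 lists were chosen with earlier results of these data known. Named genes were ZNF469, the 9, every called list gene (up to 8 per list) and TNFSF11, TNFSF10 and TNFRSF11A. For a symbol listed more than once (58 symbols), the entry with the highest mean count was used. Alternatives were DESeq2 1.42.0, other scalings and filters, a replicate block, limma 3.58.1 on TPM and leaving out each library. Promoter windows and gene coordinates came from RefSeq (GRCh38.p14), and transcript lengths and overlaps from GENCODE 29. The osteoblast marker sum is not reported here.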

Additional observations from a re-analysis of the deposited data

How the results depend on the processing

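ALPL, MGP and ACAN kept their direction in 15 of 15 alternative settings each, and ALPL, MGP and ACAN kept their call in 13, 12 and 6 of them. The other 6 genes were called in none of the 15. With RLE factors, upper-quartile factors or library totals only, all genes came to 717 to 773 higher and 793 to 858 lower. Of the calls of ZNF469, the 9 and the list genes, only that of NT5E was lost, with library totals only (edgeR adjusted p = 0.0680). The calls of the marker genes KRT10, COL1A1, COL1A2, COL3A1, VIM and FBLN1 were not followed over the alternative settings. With limma on TPM, 0 of the 9 genes were lower with either pseudocount, and ALPL remained higher. All genes came to 1646 higher and 1648 lower with DESeq2, to 233 and 526 with limma on log2(TPM + 1) and to 191 and 462 with log2(TPM + 0.1). Leaving out 1 library gave 0 to 1 of the 9 higher and 0 to 1 lower, and 204 to 769 higher and 333 to 854 lower over all genes. Over all genes, 204 higher and 388 lower were called without shZNF469 replicate 1, 496 higher without shZNF469 replicate 3, 215 and 333 without shControl replicate 1, 332 and 397 without shControl replicate 2, and 267 and 405 without shControl replicate 3. The cause of these moves was not tested, other than that fits without a library hold fewer samples.

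For the lists, DESeq2 called 3 higher and 3 lower phosphate and calcification genes, 6 and 2 osteoblast genes, 2 lower aggrecan-related genes and 1 lower osteoprotegerin partner. Limma on TPM, with either pseudocount, gave 0 higher phosphate and calcification genes, 0 higher and 1 lower cartilage genes and 1 higher osteoprotegerin partner. Without a filter, 0 cartilage genes and 1 osteoprotegerin partner were higher; with a mean of at least 1 CPM, 2 osteoblast and 2 aggrecan-related genes were lower. Single libraries left out gave 0 to 1 higher phosphate genes, 1 to 2 lower osteoblast genes, 0 higher and 1 lower cartilage genes, and 0 to 2 higher and 0 to 1 lower osteoprotegerin partners.

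Deviations of same-numbered libraries from their group means correlated at r of -0.02, 0.08 and 0.03, so the numbers were not taken as pairs. With the replicate block, 1 of the 9 was lower, the call of ACAN being lost (adjusted p = 0.0538), and all genes came to 592 higher and 736 lower. The block gave 0 higher and 2 lower phosphate genes, 2 lower osteoblast genes, 0 higher cartilage genes, and 1 higher and 1 lower osteoprotegerin partner. The log2 ratios of RUNX2 to RUNX1, ANKH to ENPP1 and ALPL to ENPP1 kept their sign on TPM and without each library. The number of libraries, 3 in each group, limits what small changes can be called.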
